A study of Mus musculus with 10 samples.

Results

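Toll-like receptors are the innate immune receptors with which macrophages sense microbial molecules, and the genes Tlr1, Tlr2, Tlr3, Tlr4, Tlr5, Tlr6, Tlr7, Tlr8, Tlr9 and Tlr13 were followed here in Rac2-/- and WT bone marrow-derived macrophages (BMDMs). The members were chosen by gene symbol, and each was read from the array feature that carries its symbol alone. Of the 10 receptors, 9 had such a feature, 1 each, among 34760 features in all and 19937 genes with a feature of a single symbol. Tlr5, the receptor for flagellin, had none and is not described further. All 9 passed the filter on low values. The study examined Rac2, a small GTPase of blood cells, and profiled 5 arrays of Rac2-/- and 5 arrays of WT BMDMs, numbered 1 to 5 in each group. The Rac2-/- mice lack Rac2 in every cell and not in macrophages alone, and the WT mice were their normal littermates on a C57BL/6J background. All arrays came from BMDMs of male mice that had received no stimulus other than MCSF, the macrophage growth factor, at 50 ng/ml for 7 days, in 20% serum and 16% oxygen, with 8 days of culture in the labels. Ages were not given in the sources used here, and the design names 5 mice of each genotype, so that p-values measure the spread between these cultures, part of which may be technical.

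Toll-like receptors recognise their ligands with leucine-rich repeats and pass the signal on through a cytoplasmic domain that recruits adaptor proteins. Tlr1, Tlr2, Tlr4, Tlr5 and Tlr6 lie at the cell surface and bind components of microbial envelopes and flagella, whereas Tlr3, Tlr7, Tlr8, Tlr9 and Tlr13 lie in endosomes, to which the chaperone Unc93b1 brings them, and bind nucleic acids. Through the adaptor Myd88 the receptors other than Tlr3 drive NF-kB and inflammatory cytokines. Through the adaptor Ticam1, Tlr3 and Tlr4 drive Irf3 and interferon beta. Interferons in turn raise the transcription of several of these receptors.

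The promoters of the receptors whose values are compared most closely below are given first, because each carries in its upstream window a motif of a factor known in macrophages. The promoter table, from RefSeq on GRCm38.p6, held 8 of the 10 receptors. Tlr4 and Tlr7 were not among them. The 250 bases before the transcription start are printed in the direction of transcription, with the match in capitals. Matches to the PU.1 motif GAGGAAG, bound by the lineage factor of myeloid cells, are shown for Tlr9 and Tlr13, and matches to the NF-kB motif for Tlr3 and Tlr2. In Tlr2 the capitals cover 2 matches that overlap.

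Tlr3, chr8:45410381-45410630 (- strand): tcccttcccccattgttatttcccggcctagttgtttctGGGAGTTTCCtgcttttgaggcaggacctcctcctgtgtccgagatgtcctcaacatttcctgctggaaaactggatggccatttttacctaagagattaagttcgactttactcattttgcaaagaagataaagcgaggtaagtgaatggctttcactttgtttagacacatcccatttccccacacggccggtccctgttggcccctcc
Tlr9, chr9:106222348-106222597 (+ strand): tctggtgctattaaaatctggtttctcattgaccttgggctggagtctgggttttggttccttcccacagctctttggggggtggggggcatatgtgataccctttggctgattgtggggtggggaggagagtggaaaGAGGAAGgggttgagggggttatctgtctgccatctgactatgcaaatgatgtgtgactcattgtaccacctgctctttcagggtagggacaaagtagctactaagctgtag
Tlr13, chrX:106143025-106143274 (+ strand): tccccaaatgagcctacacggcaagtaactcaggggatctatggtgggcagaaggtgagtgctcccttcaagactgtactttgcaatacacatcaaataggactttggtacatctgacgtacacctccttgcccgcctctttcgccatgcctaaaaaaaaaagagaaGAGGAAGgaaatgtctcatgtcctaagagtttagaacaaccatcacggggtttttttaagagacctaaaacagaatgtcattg
Tlr2, chr3:83841609-83841858 (- strand): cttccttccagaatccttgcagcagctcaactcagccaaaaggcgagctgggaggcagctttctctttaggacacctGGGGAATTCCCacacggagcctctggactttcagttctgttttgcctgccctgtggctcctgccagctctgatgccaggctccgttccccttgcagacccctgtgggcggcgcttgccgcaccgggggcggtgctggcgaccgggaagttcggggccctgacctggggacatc

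The PU.1 motif lay 112 to 106 bases before the start in Tlr9 and 83 to 77 bases before it in Tlr13, and Tlr1 had it as well. Of all 32851 promoter windows of this length, 10.6% held it on either strand. The NF-kB motif lay 211 to 202 bases before the start in Tlr3 and 173 to 163 in Tlr2, and 7.25% of all windows held it. The interferon-stimulated response element, GAAA repeated after 2 bases of any kind, was found in a window of Tlr6 and in 2.98% of all, and the STAT motif TTCNNNGAA in windows of Tlr1 and Tlr8 and in 7.02% of all. These are matches of letters in the reference sequence, and no binding was measured.

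Rac2 itself checked the labels. Its signal was 6.80 to 7.54 in Rac2-/- arrays and 11.81 to 12.42 in WT arrays (log2 difference -5.0, adjusted p = 7.73e-07), so every array fitted its genotype. All values are log2 expression as RMA gives it, and all differences are Rac2-/- minus WT. Array medians were 6.07 to 6.14 and no 2 arrays were identical. For some genes that varied widely between arrays, however, arrays 3 and 4 of each genotype were nearly alike. The neutrophil marker Ly6g was at 7.32 and 7.31 in WT arrays 3 and 4, against 5.42 in WT array 5. It was at 6.60 and 6.62 in Rac2-/- arrays 3 and 4, against 5.19 in Rac2-/- array 5. Whether arrays 3 and 4 read separate cultures was not tested, and all fits and permutation tests count them as separate. In both genotypes, arrays 1 and 2 formed one set of values and arrays 3 to 5 another, although the labels describe no batch. These array sets hold both genotypes in equal numbers, so the mean difference stays the same when a term for them is added, and only its error changes. Adjusted p-values are therefore given from limma without such a term, which is the main test, and with it. The sample descriptions give 80% as the least share of Mac1-positive cells, so other cells may be present. Because the arrays read all cells of a culture together, fewer cells of a type and less RNA per cell cannot be told apart. Of 10 macrophage markers tested, the mean log2 level was 11.91 to 12.19 in Rac2-/- arrays and 11.93 to 12.15 in WT arrays. In the main test 1, the mannose receptor Mrc1, passed (log2 difference 0.66, adjusted p = 0.00352), against 1.9% of all features. With the array-set term 2 passed higher, Mrc1 (adjusted p = 0.00054) and Itgam (difference 0.33, adjusted p = 0.00686). Fcgr1 passed lower with it (difference -0.74, adjusted p = 0.015), against 9.34% of all features called with the term.

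By mean, 8 of the 9 receptors were lower and 1, Tlr2, was higher in Rac2-/- BMDMs. The median difference of the 9 was -0.32, whereas the median of all features tested was 0.00 with 50.1% of them below 0. In the main test 1 receptor passed, Tlr4, which fell, against 1.9% of all features called, 1.11% lower and 0.795% higher. An unadjusted p under 0.05 was reached by 3 receptors, Tlr1, Tlr2 and Tlr4, and by 10.4% of all features. With the array-set term 4 passed, of which Tlr3, Tlr4 and Tlr13 fell and Tlr2 rose, against 9.34% of all features called, 4.36% lower and 4.98% higher. With the replicate number as a block, 2 passed, Tlr3 and Tlr4, both lower, against 6.35% of all features called, 3.03% lower and 3.32% higher. Arrays 3 to 5 alone called the same 2 genes, against 5.5% of all features, 3.04% lower and 2.46% higher. Arrays 1 and 2 alone called 0 receptors and 0.0074% of all features. Within both array sets taken alone, no Rac2-/- array overlapped a WT array for 6 receptors. Tlr3, Tlr4, Tlr7, Tlr9 and Tlr13 were lower in this way, as were 6.19% of all features, and Tlr2 was higher, as were 7.71%.

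**Figure D1:**
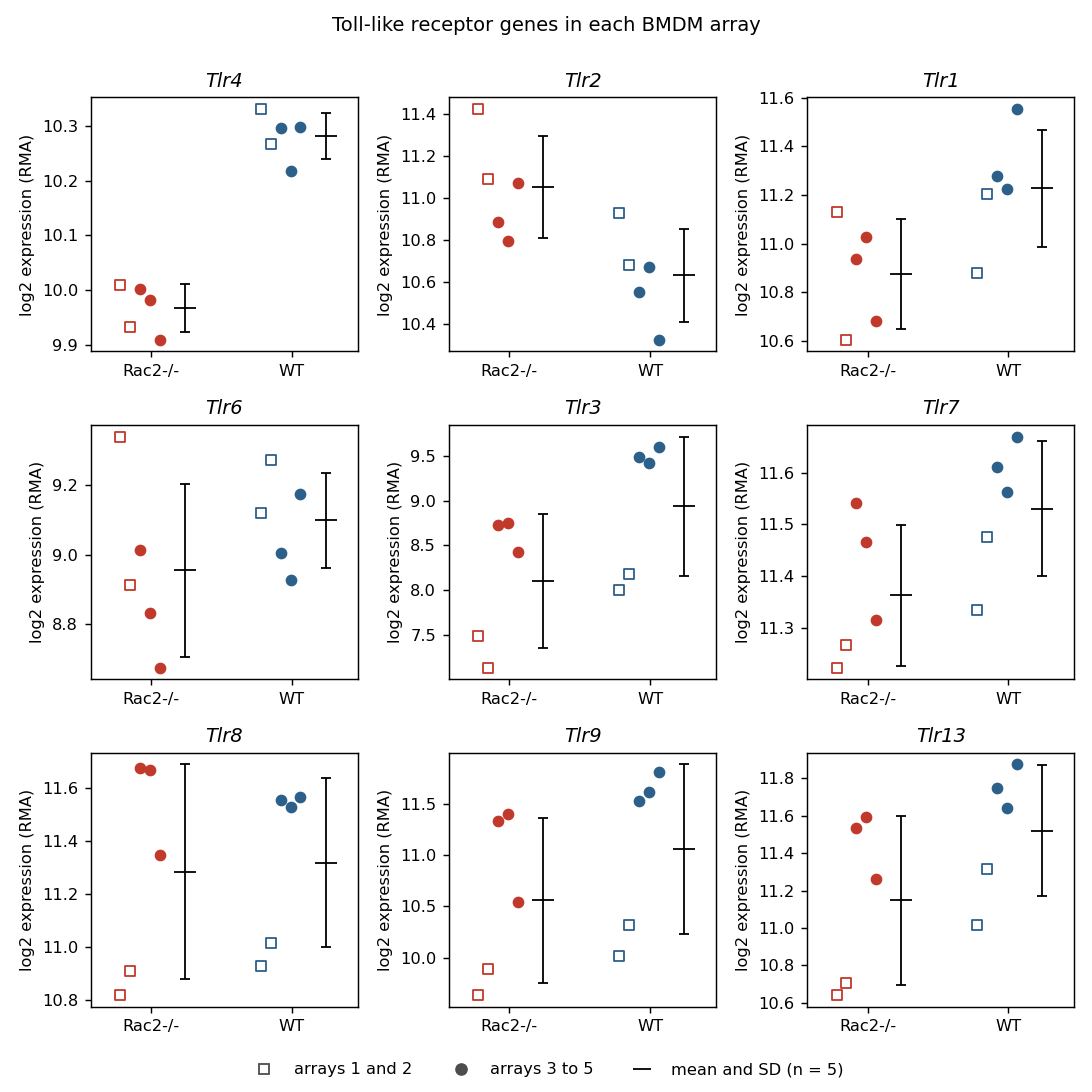
Log2 expression (RMA) of the 9 measured Toll-like receptors in each array, Rac2-/- (red) left of WT (blue), with open squares for arrays 1 and 2, filled circles for arrays 3 to 5, and the mean and SD of 5 arrays beside them. Each panel has its own scale. The Tlr4 arrays of the genotypes do not overlap. For Tlr3, Tlr6, Tlr7, Tlr8, Tlr9 and Tlr13 the mean distance between the array sets exceeds that between the genotypes.

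Tlr4, the receptor for bacterial lipopolysaccharide, had the narrowest spread of the family. Its level was 10.009, 9.933, 10.001, 9.982 and 9.909 in Rac2-/- arrays 1 to 5, against 10.331, 10.267, 10.296, 10.218 and 10.298 in WT arrays 1 to 5. Every Rac2-/- array lay below every WT array, as for 2.34% of all features. Tlr4 averaged 9.97 ± 0.04 in Rac2-/- and 10.28 ± 0.04 in WT (SD, n = 5 each), and was thus 1.24-fold lower in Rac2-/- BMDMs. The log2 difference was -0.32 (SE 0.06, 95% interval -0.45 to -0.18), with an adjusted p of 0.0312 without and 0.00452 with the array-set term. The exact two-sided permutation test gave p = 0.00794, the smallest that 252 splits of the arrays allow. The difference was -0.33 within arrays 1 and 2 and -0.31 within arrays 3 to 5. The margin to the threshold was small: when single arrays were left out, Tlr4 passed in 1 of 10 fits, the one without Rac2-/- array 1, and the adjusted p lay between 0.04 and 0.101.

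Tlr2, which pairs with Tlr1 or Tlr6 to bind bacterial lipopeptides, was the receptor with the opposite direction. Its level was 11.42, 11.09, 10.89, 10.79 and 11.07 in Rac2-/- arrays 1 to 5, against 10.93, 10.68, 10.55, 10.67 and 10.32 in WT arrays 1 to 5. The Rac2-/- arrays lay above the WT arrays of the same set, and over all arrays the groups overlapped because WT array 1 exceeded Rac2-/- arrays 3 and 4. Tlr2 averaged 11.05 ± 0.24 in Rac2-/- and 10.63 ± 0.22 in WT (SD, n = 5 each), 1.34-fold higher in Rac2-/- BMDMs. The log2 difference of 0.42 (SE 0.14, 95% interval 0.11 to 0.74) did not pass the main test (adjusted p = 0.24, exact two-sided permutation p = 0.0238). With the array-set term its SE was 0.10 and it passed (adjusted p = 0.0258). It missed the threshold with the replicate block (adjusted p = 0.0501). It also missed it within arrays 1 and 2 alone (difference 0.45, adjusted p = 0.562) and within arrays 3 to 5 alone (difference 0.40, adjusted p = 0.11).

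The partners of Tlr2 were lower in Rac2-/- by mean, though neither passed. Tlr1, the partner for triacylated lipopeptides, was at 11.13, 10.60, 10.94, 11.03 and 10.68 in Rac2-/- arrays 1 to 5, against 10.88, 11.20, 11.28, 11.23 and 11.55 in WT arrays 1 to 5. All Rac2-/- arrays of set 3 to 5 lay below the WT arrays of that set, whereas in arrays 1 and 2 the groups crossed. Means were 10.88 ± 0.22 in Rac2-/- and 11.23 ± 0.24 in WT (SD, n = 5 each), and the log2 difference was -0.35 (SE 0.14). It did not pass (adjusted p = 0.389, exact permutation p = 0.0556, and adjusted p = 0.138 with the array-set term). Tlr6, the partner for diacylated lipopeptides and the neighbour of Tlr1 on chromosome 5, was at 9.34, 8.91, 9.01, 8.83 and 8.67 in Rac2-/- arrays 1 to 5, against 9.12, 9.27, 9.00, 8.93 and 9.18 in WT arrays 1 to 5. The groups overlapped, and the difference of -0.15, which was -0.24 without Rac2-/- array 1 and -0.08 without Rac2-/- array 5, had a 95% interval of -0.43 to 0.14 (adjusted p = 0.908, and 0.465 with the array-set term). At the surface, therefore, Tlr4 and Tlr2 differed past the test in at least 1 of the fits without and with the array-set term, in opposite directions, and Tlr1 and Tlr6 in neither of these 2 fits.

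**Figure D2:**
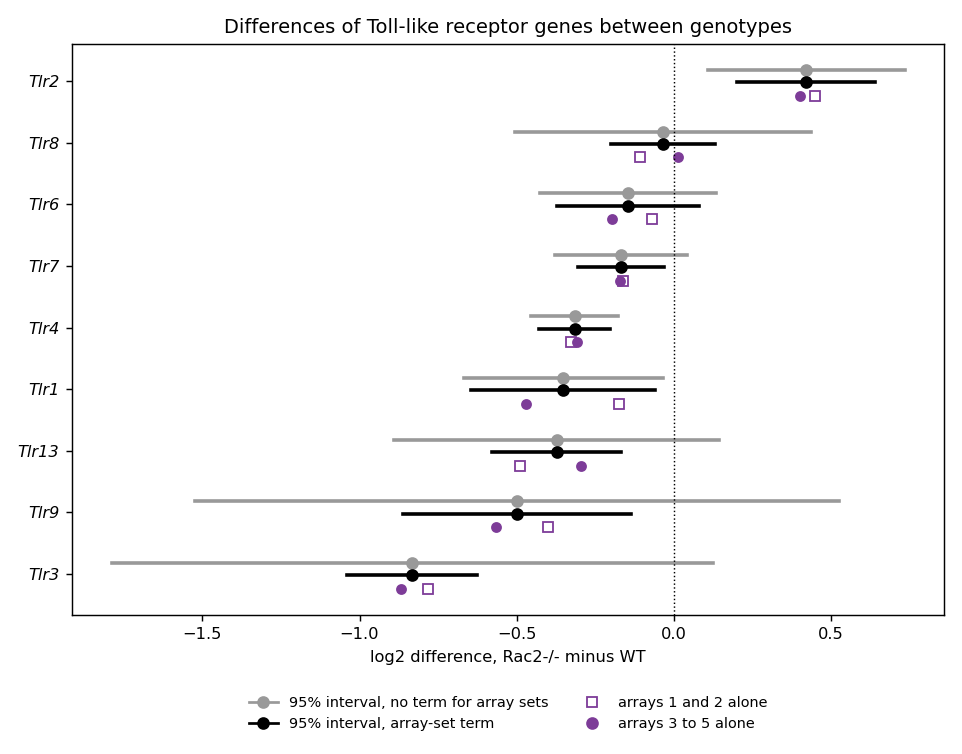
Log2 difference of each Toll-like receptor, Rac2-/- minus WT, with 95% intervals without (grey) and with (black) a term for the array sets, and the differences within arrays 1 and 2 (open squares) and within arrays 3 to 5 (filled circles). Values left of 0 are lower in Rac2-/-. With the term the interval of Tlr3 narrows to -1.04 to -0.63, and that of Tlr8 still spans 0.

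Among the endosomal receptors, Tlr3, which binds double-stranded RNA, differed most in mean. Its level was 7.48, 7.14, 8.73, 8.75 and 8.43 in Rac2-/- arrays 1 to 5, against 8.00, 8.18, 9.48, 9.42 and 9.60 in WT arrays 1 to 5. Each Rac2-/- array was below each WT array of its own set, while Rac2-/- arrays 3 to 5 lay above WT arrays 1 and 2. Tlr3 averaged 8.11 ± 0.75 in Rac2-/- and 8.94 ± 0.78 in WT (SD, n = 5 each), a 1.78-fold lower level in Rac2-/- BMDMs. With no term for the array sets the difference of -0.83 had an SE of 0.43 and did not pass (adjusted p = 0.608, exact permutation p = 0.127). With the term the SE was 0.09 and Tlr3 fell past the threshold (adjusted p = 0.000779), as it did with the replicate number as a block (adjusted p = 0.0106) and within arrays 3 to 5 alone (difference -0.87, adjusted p = 0.0104). Within arrays 1 and 2 alone the difference was -0.78 (adjusted p = 0.359).

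Tlr9, the receptor for DNA with unmethylated CpG, and Tlr13, a mouse receptor for bacterial ribosomal RNA, had a like layout over the arrays. Tlr9 was at 9.63, 9.89, 11.33, 11.40 and 10.54 in Rac2-/- arrays 1 to 5, against 10.01, 10.31, 11.53, 11.62 and 11.81 in WT arrays 1 to 5. Rac2-/- array 5 was the lowest of its set by a wide margin, and within either set the genotypes did not overlap. Tlr9 averaged 10.56 ± 0.81 in Rac2-/- and 11.06 ± 0.83 in WT (SD, n = 5 each), and the difference was -0.50 (SE 0.46, adjusted p = 0.928). Without WT array 1 it was -0.76 and without Rac2-/- array 1 it was -0.27. With the array-set term the 95% interval was -0.86 to -0.14 and the adjusted p 0.0912, so Tlr9 passed in neither fit. Tlr13 was at 10.64, 10.71, 11.53, 11.59 and 11.26 in Rac2-/- arrays 1 to 5, against 11.02, 11.31, 11.75, 11.64 and 11.87 in WT arrays 1 to 5. Here too the genotypes did not overlap within a set. Means of 11.15 ± 0.45 in Rac2-/- and 11.52 ± 0.35 in WT (SD, n = 5 each) gave a difference of -0.37 (SE 0.23, adjusted p = 0.749), a 1.29-fold lower level in Rac2-/- BMDMs. Without Rac2-/- array 1 the difference was -0.25. Tlr13 fell past the threshold with the array-set term (SE 0.09, adjusted p = 0.0327) and missed it with the replicate block (adjusted p = 0.0818).

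Tlr7, a receptor for single-stranded RNA, and Tlr8, whose human counterpart binds RNA fragments, are adjacent genes on the X chromosome, with 0 protein-coding genes between them. Tlr7 was at 11.22, 11.27, 11.54, 11.47 and 11.32 in Rac2-/- arrays 1 to 5, against 11.33, 11.48, 11.61, 11.56 and 11.67 in WT arrays 1 to 5. The difference of -0.17 (SE 0.09) was small but kept apart the genotypes in both sets, with -0.16 within arrays 1 and 2 and -0.17 within arrays 3 to 5. It did not pass (adjusted p = 0.673, and 0.132 with the array-set term). Tlr8 was at 10.82, 10.91, 11.67, 11.67 and 11.35 in Rac2-/- arrays 1 to 5, against 10.93, 11.01, 11.55, 11.53 and 11.57 in WT arrays 1 to 5. Rac2-/- arrays 3 and 4 lay above all WT arrays, and the difference of -0.03 had a 95% interval of -0.51 to 0.44 without the term and -0.20 to 0.13 with it (adjusted p = 0.999 without and 0.847 with the term). Tlr8 was the member with the smallest difference, and a change of the size seen in Tlr3 lies outside both intervals. Of the receptors outside the family followed here, Tlr12, which in mice senses a parasite profilin, averaged 5.72 ± 0.23 in Rac2-/- and 5.86 ± 0.23 in WT (SD, n = 5 each; difference -0.14, adjusted p = 0.954), and Tlr11 had no feature.

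The distance between the array sets also differed from receptor to receptor. It is given as the mean of arrays 3 to 5 minus the mean of arrays 1 and 2, as a description with no test, since the sets were defined from values of these arrays. Tlr9 differed between the sets by 1.33 in Rac2-/- and 1.49 in WT, and Tlr3 by 1.32 in Rac2-/- and 1.41 in WT. Tlr13 followed with 0.79 in Rac2-/- and 0.59 in WT, then Tlr8 with 0.70 in Rac2-/- and 0.58 in WT, and Tlr7 with 0.20 in Rac2-/- and 0.21 in WT. All 5 endosomal receptors were thus higher in arrays 3 to 5 in both genotypes. The share of all features higher in both genotypes was not counted. The shift was not particular to endosomal receptors. As a mean over the genotypes it was 1.22 for Ly96, a subunit of the Tlr4 complex, 0.99 for Cd180 and 1.14 for the adaptor Ticam1. The median shift of the 15 accessory and trafficking genes was -0.01. At the surface the shift was -0.34 in Rac2-/- and -0.29 in WT for Tlr2, -0.29 in Rac2-/- and -0.16 in WT for Tlr6, and -0.01 in Rac2-/- and -0.03 in WT for Tlr4, while Tlr1 had 0.02 in Rac2-/- and 0.31 in WT. For Tlr3, Tlr8 and Tlr9 all of arrays 3 to 5 exceeded all of arrays 1 and 2, as for 17% of all features. The median absolute shift of all features was 0.247, and 7.72% shifted by more than 1. Whether the genotype difference itself varied between the sets was tested in limma as an interaction, and 0 receptors passed at an adjusted p (lowest 0.942) or at an unadjusted p under 0.05, as 0% and 5.77% of all features did. The interaction ranged over the members from -0.30 for Tlr1 to 0.20 for Tlr13.

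**Figure D3:**
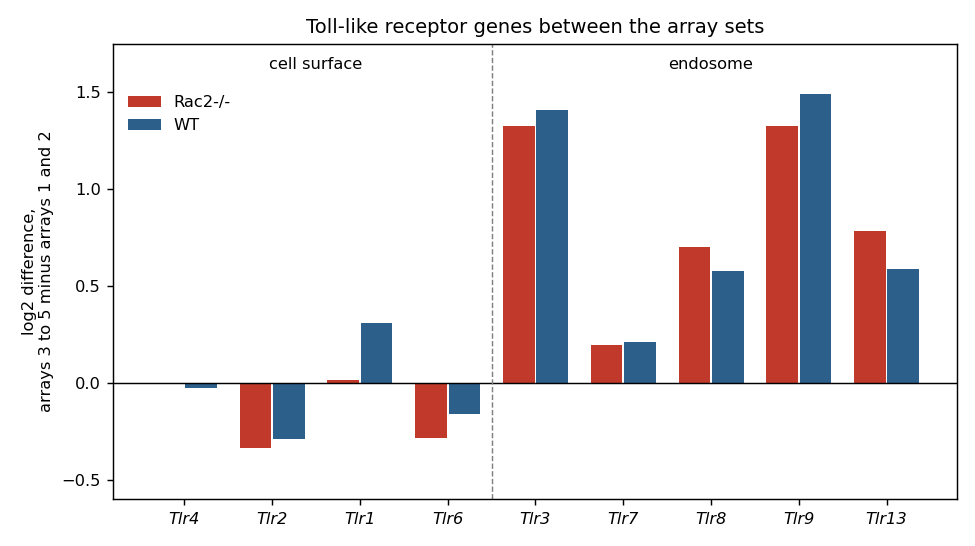
Mean log2 difference between the array sets (arrays 3 to 5 minus arrays 1 and 2) for each Toll-like receptor, Rac2-/- (red) left of WT (blue), surface receptors left and endosomal receptors right of the dashed line. The endosomal receptors lie above 0 in both genotypes, from 0.20 for Tlr7 to 1.49 for Tlr9, and the surface receptors lie between -0.34 and 0.31.

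The other genes of the pathway were read by role, against the 1.9% of all features that passed the main test, 9.34% with the array-set term and 6.35% with the replicate block. Of 15 accessory and trafficking genes, 4 were lower and 11 higher by mean (median 0.11), 0 passed the main test, and 2 passed with the array-set term, a share near that of all features. Cd180, a receptor of the same repeat family that lacks the signalling domain and pairs with Ly86, was at 10.82, 10.86, 12.08, 12.11 and 11.95 in Rac2-/- arrays 1 to 5, against 11.72, 12.11, 12.66, 12.57 and 12.82 in WT arrays 1 to 5. It did not overlap within a set and fell by 0.81 with the term (adjusted p = 0.00186, 0.375 without it and 0.0142 with the block). Hsp90b1, the chaperone that folds most Toll-like receptors, averaged 11.75 ± 0.25 in Rac2-/- and 11.45 ± 0.24 in WT (SD, n = 5 each), and rose by 0.30 with the term (adjusted p = 0.0489, 0.566 without it and 0.0815 with the block). The coreceptor Cd14, which hands lipopolysaccharide to Tlr4, averaged 11.82 ± 0.17 in Rac2-/- and 11.60 ± 0.11 in WT (difference 0.22, adjusted p = 0.487, and 0.0879 with the term). Ly96, the ligand-binding subunit of the Tlr4 complex, differed by 0.07 (adjusted p = 0.999). Unc93b1, which carries the nucleic acid receptors to endosomes, averaged 12.01 ± 0.13 in Rac2-/- and 11.97 ± 0.05 in WT (difference 0.04, adjusted p = 0.999).

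Of the 6 adaptors, 5 were lower and 1 higher by mean (median -0.18), and 0 passed either fit. Myd88 was at 11.50, 11.24, 11.41, 11.48 and 11.27 in Rac2-/- arrays 1 to 5, against 11.46, 11.52, 11.69, 11.74 and 11.73 in WT arrays 1 to 5. The groups were apart in arrays 3 to 5 and overlapped in arrays 1 and 2, and the difference of -0.25 (SE 0.09) did not pass (adjusted p = 0.301, and 0.0729 with the term). Ticam1, the adaptor of Tlr3, differed by -0.13 (adjusted p = 0.999). Among 13 kinases and ubiquitin ligases tested of 17, 6 were lower and 7 higher (median 0.05), 0 passed the main test and 1 passed with the term, which is no more than the share of all features. This was Map3k8, the kinase that links the receptors to ERK, at 9.40 ± 0.30 in Rac2-/- and 9.74 ± 0.13 in WT (difference -0.34, adjusted p = 0.429, 0.0262 with the term and 0.0708 with the block).

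Of 11 inhibitors of the pathway tested of 12, 5 were lower and 6 higher (median 0.02), 0 passed the main test, and 3 passed with the array-set term, 2 lower and 1 higher. Irak3, an inactive kinase that restrains Myd88 signalling, was higher at 11.79 ± 0.32 in Rac2-/- and 11.41 ± 0.42 in WT (difference 0.39, adjusted p = 0.673, 0.00305 with the term and 0.0216 with the block). Socs1, a feedback inhibitor of cytokine receptors, was lower at 7.17 ± 0.28 in Rac2-/- and 7.69 ± 0.45 in WT (difference -0.51, adjusted p = 0.431, 0.00796 with the term and 0.0354 with the block). Trafd1, an interferon-induced inhibitor, differed by -0.39 (adjusted p = 0.209, 0.0365 with the term and 0.0746 with the block). Among 11 transcription factors tested of 12, 8 were lower and 3 higher (median -0.06), 0 passed the main test and 4 passed with the term. Jun, a subunit of AP-1, averaged 9.79 ± 0.31 in Rac2-/- and 10.45 ± 0.20 in WT (difference -0.65, adjusted p = 0.0768, 0.00468 with the term and 0.0132 with the block), and Irf5, which acts below Myd88, differed by -0.32 (adjusted p = 0.481, 0.0197 with the term and 0.0482 with the block). Creb1 (difference 0.29, adjusted p = 0.14, 0.00772 with the term and 0.0355 with the block) and the NF-kB subunit gene Nfkb2 (difference 0.42, adjusted p = 0.324, 0.042 with the term and 0.0703 with the block) were the 2 that rose with the term. Irf7, the factor for interferon alpha below Tlr7 and Tlr9, was at 12.12, 12.04, 12.18, 12.18 and 10.82 in Rac2-/- arrays 1 to 5, against 12.49, 12.59, 12.56, 12.47 and 12.74 in WT arrays 1 to 5. Every Rac2-/- array lay below every WT array, array 5 far below, and the difference of -0.71 (SE 0.24) did not pass (adjusted p = 0.264, and 0.108 with the term).

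The lists at the end of the pathway held most of the calls. Of 16 inflammatory targets tested of 17, 12 were lower and 4 higher (median -0.38), 1 passed the main test, 5 passed with the array-set term and 2, Nos2 and Ccl4, passed with the replicate block, all lower. Nos2, the inducible nitric oxide synthase, was at 6.24, 6.17, 6.24, 6.24 and 5.97 in Rac2-/- arrays 1 to 5, against 7.31, 7.60, 7.90, 7.89 and 8.20 in WT arrays 1 to 5. The groups were far apart, and Nos2 was 3.05-fold lower in Rac2-/- BMDMs (log2 difference -1.61, SE 0.15, adjusted p = 0.000703). The chemokine genes Ccl3 (difference -0.39, adjusted p = 0.0778, 0.0145 with the term and 0.0557 with the block), Ccl4 (difference -1.40, adjusted p = 0.319, 0.00165 with the term and 0.0128 with the block) and Cxcl10 (difference -1.37, adjusted p = 0.0743, 0.0296 with the term and 0.0555 with the block) fell with the term and not in the main test. Ifnb1, the interferon beta gene, was near the low end of the scale at 5.17 ± 0.20 in Rac2-/- and 5.55 ± 0.39 in WT (difference -0.38, adjusted p = 0.544, 0.0178 with the term and 0.0541 with the block).

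Of 14 interferon response genes tested of 16, 14 were lower in Rac2-/- by mean (median -0.81), 8 passed the main test and 12 passed with the term. Rsad2, the antiviral enzyme viperin, was at 11.39, 10.63, 10.97, 10.91 and 10.26 in Rac2-/- arrays 1 to 5, against 12.07, 12.45, 12.20, 12.16 and 12.31 in WT arrays 1 to 5 (log2 difference -1.41, adjusted p = 0.00463). The groups did not overlap. Usp18, which removes Isg15 from proteins, fell by 1.05 (adjusted p = 0.011), and Oas3, a sensor of double-stranded RNA, fell too (difference -1.08, adjusted p = 0.0229). Ifit1, which binds viral RNA, fell by 0.83 (adjusted p = 0.0155), and Stat2, a subunit of the interferon-induced factor, fell by 0.79 (adjusted p = 0.0245). Plasmacytoid dendritic cells are a marrow cell type that carries Tlr7 and Tlr9. All 6 of their markers tested, of 7, were lower in Rac2-/- by mean (median -0.63), 0 passed the main test, and 3 passed with the term. Their mean log2 level was 7.01 to 7.34 in Rac2-/- arrays and 7.66 to 7.96 in WT arrays. Siglech, their defining surface receptor, averaged 5.92 in Rac2-/- and 6.54 in WT (adjusted p = 0.108, and 0.0253 with the term). The levels of Siglech are near the array medians of 6.07 to 6.14, whereas the mean levels of the list lie above them. Bst2, the highest of that list at 11.49 in Rac2-/- and 12.14 in WT, is itself induced by interferon. The part of the interferon response and of these markers in the lower Tlr3, Tlr9 and Tlr13 was not tested. Over the 8 other lists of the pathway together, 87 genes were tested. The main test called 9, the replicate block 19 and the array-set term 27, 23 of the last lower. The interferon response list alone gave 8, 11 and 12 of these calls, and the only other gene called in the main test was Nos2. In the same fits 1.9%, 6.35% and 9.34% of all features were called. The pooled counts therefore rest largely on 1 list.

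**Figure D4:**
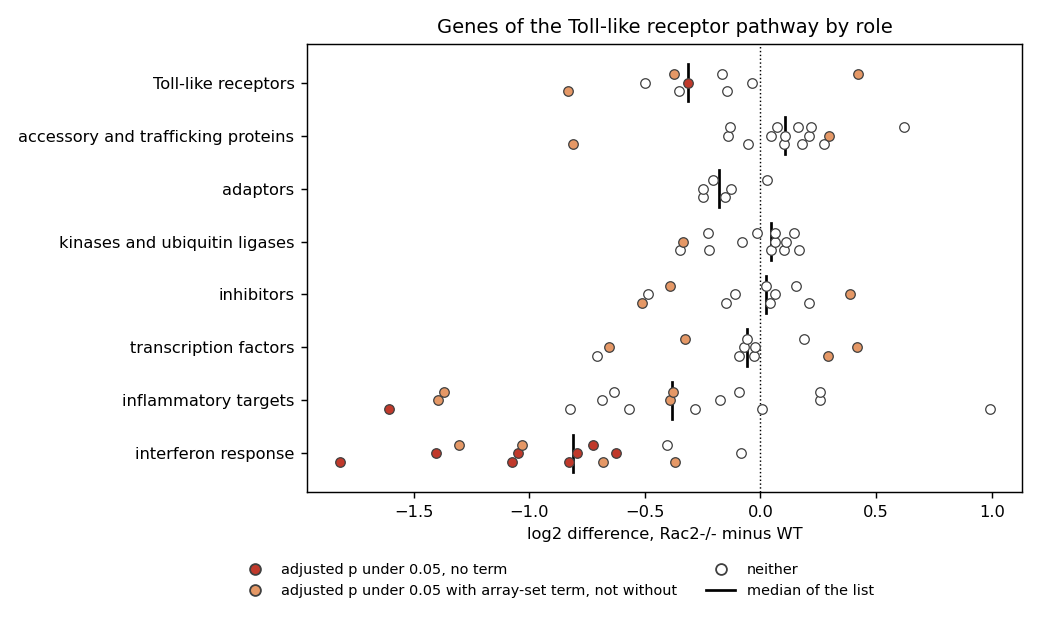
Log2 difference, Rac2-/- minus WT, of each gene of the Toll-like receptor pathway, grouped by role, with vertical bars at the median of each list. Red genes passed the main test, orange genes passed with the array-set term and not without it. The medians lie between -0.18 and 0.11 from the accessory proteins to the transcription factors, at -0.38 for inflammatory targets and at -0.81 for the interferon response.

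For the 2 receptors with the smallest p, the genes with the most similar profile were sought among 16883 genes, by the root mean square distance between values over 10 arrays after each gene's own mean was taken off. Nearest to Tlr4, whose own profile had a root mean square of 0.162, were Oas1f at a distance of 0.0498, Ttc38 at 0.0547 and Nudt16 at 0.0594. Oas1f, of the oligoadenylate synthetase family, differed between the genotypes by -0.32, Ttc38 by -0.35 and Nudt16 by -0.25. Nearest to Tlr2, with a root mean square of 0.295, were Smc3, a subunit of cohesin, at 0.0967, the heme-binding protein gene Hebp1 at 0.107 and the mitochondrial flavoprotein gene Aifm1 at 0.11. Smc3 differed by 0.37, Hebp1 by 0.48 and Aifm1 by 0.40. The choice by profile fixes these directions, so the values are a description with no test.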

How the data were processed

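RNA of Rac2-/- and WT BMDMs was read on Affymetrix mouse whole-transcript arrays, 5 for each genotype, grouped and numbered as in the labels. The deposited log2 values were produced by the authors through RMA, that is, background correction, quantile normalization between arrays and 1 summary value for each feature. The methods also name ComBat for a batch effect. Software versions are not given in the sources used here, nor is it stated there whether ComBat entered these values. The log base was taken as log2 from the range of 1.69 to 13.7. The number of arrays limits the precision.

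Of 34760 features, 21640 had a single gene symbol in the platform annotation, 1321 several and 11799 were not listed. Symbols were brought up to date by Entrez identifier for 21553 features. Features were ranked by their fourth-highest value and the first 27031, the number that the methods state, were kept, down to a value of 4.73. Rac2-/- was compared with WT by limma 3.58.1 (functions lmFit and eBayes, no block) under R 4.3.3, with Benjamini-Hochberg adjustment over the 27031 features and a threshold of 0.05. Exact two-sided permutation tests of single genes used scipy 1.17.1. Simulated data with 200 changed features tested the fits, and 61 of 100 features with a 2-fold change were recovered by the main fit and 93 by the fit with the array-set term, with 4 false calls in the main fit and 10 with the term.

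The members, the gene lists and the array sets were chosen with earlier results of these data known. Named genes were all members, Rac2, the pathway genes past the threshold without a block or with the array-set term (at most 5 per list and direction, smallest p first), and Cd14, Ly96, Unc93b1, Myd88, Ticam1 and Irf7 whatever their value. Mrc1, Itgam, Fcgr1, Siglech, Bst2, Plac8, Ccr7, Xcr1, Prss34, Dcn, Postn, Cd79b and Ly6g were named as cell type markers after their values were seen. Among the pathway genes not tested were Tlr11, Irak4, Traf3, Chuk, Ripk1, Il1rl1, Nfkb1, Il6 and Isg15.

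The main fit did not pair the arrays, and the replicate block, which pairs arrays of the same number, was run as an alternative. After group means were taken off, arrays of the same number correlated at 0.493 to 0.716. Other numbers of the same array set correlated at 0.476 to 0.724 and numbers of different sets at -0.716 to -0.515, and 5 of 10 arrays correlated best with their own number. Alternatives were the replicate block, the array-set term, fits within each set, ComBat on the sets, the filter, a trended and robust variance, array weights, quantile normalization, median centring and leaving out each array.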

Additional observations from a re-analysis of the deposited data

How the results depend on the processing

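The count of receptors past the test was 1 in the main fit, 2 with the replicate block, 4 with the array-set term, 7 with ComBat on the sets, 2 within arrays 3 to 5, 0 within arrays 1 and 2, 0 with a trended and robust variance, and 0 to 1 when single arrays were left out. For all features the main count was 514, and it was 1716 with the block, 2524 with the array-set term, 4386 with ComBat, 1811 with array weights, 2 within arrays 1 and 2, 1487 within arrays 3 to 5 and 245 to 625 without single arrays (625 without Rac2-/- array 1, 245 without WT array 3). The pathway lists gave 9 calls in the main fit, 19 with the block and 27 with the array-set term. ComBat takes the array sets out before the test, so its p-values do not carry the degrees of freedom spent on them, and fits within a set have fewer arrays. The cause of the other shifts was not tested. Tlr8 changed sign, with 0.0138 within arrays 3 to 5 and -0.13 to 0.0816 when single arrays were left out. Over 198 differences of receptors under alternatives, 170 kept direction and side of the threshold, 11, all of Tlr4, lost the call, 11 gained one and 6, all of Tlr8, changed sign. The block changed no other call among the receptors than that of Tlr3. The interaction gave 0 receptors past the test under every alternative run for it. Quantile normalization and median centring moved the median of all features to 0.00 and 0.02.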

Other observations

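Markers of other cells that marrow cultures can hold were read beside the receptors. A marker is said to pass where it passed the main test, unless another fit is named. Of all features, 1.9% passed the main test and 9.34% passed with the array-set term. Of 4 monocyte markers tested, 3 were lower in Rac2-/- BMDMs by mean (median -0.27), with a mean log2 level of 7.88 to 8.61 in Rac2-/- arrays and 8.20 to 9.66 in WT arrays, and 1, Plac8, passed (difference -2.36, adjusted p = 0.0257). Of 10 neutrophil markers, 7 were lower (median -0.27) and 0 passed, with 6.64 to 8.36 in Rac2-/- arrays and 6.79 to 8.89 in WT arrays. The 5 mast cell and basophil markers tested had a median difference of -0.84 and 0 passed. With the array-set term 1 passed, Prss34, which was lower (difference -1.18, adjusted p = 0.0244, 0.101 without the term and 0.075 with the block). The mean log2 level of all 9 with a feature was 4.71 to 4.85 in Rac2-/- arrays and 4.89 to 5.40 in WT arrays. Among 6 markers of conventional dendritic cells, 4 were lower and 2 higher, and 1, the chemokine receptor Ccr7, passed (difference -0.91, adjusted p = 0.0141). With the array-set term 1 passed lower, Ccr7, and 1 passed higher, Xcr1 (difference 0.61, adjusted p = 0.00227, 0.173 without the term and 0.00877 with the block). The 6 markers of fibroblasts and stroma tested were all lower by mean (median -0.27) and 0 passed, and the mean log2 level of all 8 with a feature was 5.78 to 6.14 in Rac2-/- arrays and 6.11 to 6.42 in WT arrays. With the array-set term 2 passed, both lower. They were Dcn (difference -1.21, adjusted p = 0.03, 0.137 without the term and 0.0173 with the block) and Postn (difference -0.69, adjusted p = 0.00496, 0.123 without the term and 0.0039 with the block). Markers of B cells (2 lower and 2 higher of 4 tested) and of T and NK cells (2 lower and 2 higher of 4 tested) were split, and 0 passed. With the array-set term 1 B cell marker passed, Cd79b, which was higher (difference 0.78, adjusted p = 0.00556, 0.115 without the term and 0.0144 with the block). The T and NK cell markers had 0 passing with the term. The part of these cells in the differences of the receptors was not tested. In 18 groups of receptor values, 9 genes in each genotype, 0 arrays stood apart from the rest by Dixon's test. The test took both array sets of a genotype together, so it cannot flag an array that leaves its own set towards the other. Tlr9 in Rac2-/- array 5 lay between the sets in this way.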
